A study of Mus musculus with 6 samples.

Results

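The Reln knockout array of a 6-array mouse brain series was set against the wild type (WT) array, with the other 4 arrays used as a measure of spread. It is 1 of the 2 arrays compared here, of 6 in all, and each array carries 45101 probe sets. Each array held RNA from 1 frontal cortical lobe of an untreated mouse aged 21 days, on a mixture of C57BL/6 and 129, and all animals are labelled male. The WT, Vldlr knockout, Apoer2 knockout and Apoer2-Vldlr double knockout mice came from a cross of double heterozygotes for the receptors. The Dab1 knockout and the Reln knockout came from matings of heterozygotes of their own, and no WT array from those matings was analysed here. The labels give neither the Reln allele nor the deleted part of the gene, and each genotype is 1 array. There is therefore no replicate error for any genotype. A permutation of 1 array against 5 cannot give a two-sided p below 0.167, so every comparison is a description with no p-value.

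Reelin, encoded by Reln, is a large glycoprotein secreted by Cajal-Retzius cells early in cortical development and by interneurons later. It binds the receptors Vldlr and Apoer2 (gene symbol Lrp8) on migrating neurons, and the adaptor Dab1 is then phosphorylated inside the cell. Mice without reelin, without Dab1 or without both receptors have misplaced cortical layers and a small cerebellum, the reeler phenotype.

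To find genes that stood apart on the Reln knockout array and on no other, the gap of each gene was measured. The gap is the distance on the log2(signal + 28) scale from the Reln knockout array to the nearest of the other 5 arrays, and it is 0 where the array lies within their range. Signals are on the arrays' linear intensity scale, and signals of different genes are not comparable as levels. Of 18194 genes, the 11499 with a mean signal of at least 89.0 over the 6 arrays were kept. A gap of at least 2-fold was found for 38 of these genes (0.33%), 24 above all other arrays (0.209%) and 14 below (0.122%). These 38 genes were chosen by their values, so those values are given as a description.

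The arrays were first checked against their labels. The brightest Reln probe set read 79.9 in the Reln knockout, against 1669.0 on the WT array and 1880.0, 1819.7, 1547.0 and 1498.3 on the Vldlr, Apoer2, Dab1 and double knockout arrays. The gap was -3.82, the widest of any kept gene, and the log2 difference from WT was -3.98. A dimmer Reln probe set, below the signal filter, read 8.7 against 12.9 to 35.7. Lrp8, Vldlr and Dab1, the receptors and the adaptor, had no gap of 2-fold on the Reln knockout array, where they read 342.4, 357.6 and 588.1, against 357.8, 551.6 and 576.2 on the WT array. Xist, a non-coding RNA of the inactive X chromosome and so of female cells, read 3367.6 on the Reln knockout array and 3498.1 on the WT array. The Y-linked Eif2s3y read 1.0 and 7.1 there, so neither array matched its male label, and only the Apoer2 knockout array had low Xist (124.9) with high Eif2s3y (367.5). The 14 kept excitatory neuron genes summed to 24754 on the Reln knockout array and 25718 to 27402 on the others. Of these genes, 4 read above all other arrays and 5 below, where 22.1% and 25.2% of all kept genes did. Slc17a7, 1 of these 4 and a vesicular glutamate transporter, read 4730.3 against 2825.2 to 3699.4, opposite to the sum. The samples also held genes of other brain regions. The summed signal of 15 cerebellar granule cell genes was 7998 to 20452 over the other 5 arrays and 9511 on the Reln knockout array. Slc17a7 is also 1 of these 15 and made up 4730.3 of the 9511, while each other member read below WT there. In RNA from whole tissue, fewer cells of a type and less RNA per cell cannot be told apart.

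The Reln knockout array held more such genes than any other array. The count of genes with a gap of at least 2-fold was 5 for WT, 7 for the Vldlr knockout, 6 for the Apoer2 knockout, 11 for the Dab1 knockout, 7 for the double knockout and 38 for the Reln knockout. At a gap of at least 1.5-fold the Reln knockout array had 125 genes above (1.09%) and 105 below (0.913%), against 20 to 43 genes in all on each other array. The balance also differed, since each other array had more genes at this gap below than above. At any gap the Reln knockout array was the highest of the 6 for 2542 genes (22.1%) and the lowest for 2902 (25.2%). It was thus outermost for 47.3% of kept genes, where the other arrays were outermost for 24.5% to 37.8%. Its median signal of 92.3 lay at the top of a range of 86.5 to 92.3. Its ratio of 5' to 3' Gapdh signal, a sign of RNA quality, was 1.40 in a range of 1.37 to 1.43, and its Actb ratio of 0.757 was the highest of 0.688 to 0.757. The part of the separate mating, the single animal or the dissection in these counts was not tested, and with 1 array they cannot be told apart from the genotype. Left out one at a time, 4 of the other arrays changed the count above by at most 4 genes, while without the double knockout array it was 37 instead of 24, with 18 below instead of 14.

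**Figure D1:**
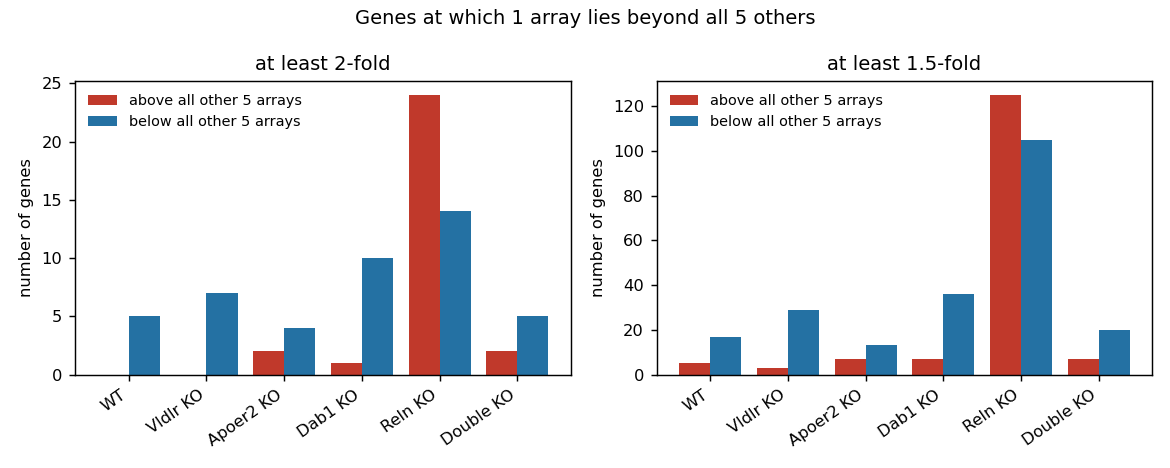
Number of kept genes (of 11499) at which each array lay at least 2-fold (left) or 1.5-fold (right) above or below all other 5 arrays on the log2(signal + 28) scale; bars are counts, 1 array per genotype. The Reln knockout array has 125 above and 105 below at 1.5-fold and 24 above and 14 below at 2-fold, and no other array passes 43 or 11 in all.

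A 2-fold difference from WT was a different measure from standing apart on this array. Against WT alone, 133 genes were higher by 2-fold or more on the Reln knockout array (1.16%) and 153 were lower by as much (1.33%). The Reln knockout array was outermost for 124 of the 133 higher genes, but only 24 of them had a gap of 2-fold, and the median gap was 0.69. For 80 of the 133 the WT array was itself the lowest of the 6. Of the 153 lower genes the Reln knockout array was outermost for 118, 35 lay within the range of the other arrays, and 14 had a gap of 2-fold. The WT array was the highest of the 6 for 93 of the 153. Gabra6 (251.5 against 1797.0 on the WT array) and Pttg1 (291.2 against 1788.9) were among the 5 widest lower differences. Galc (404.6 against 62.3) was among the 5 widest higher ones. Each of these genes lay within the range of the other arrays. With a pseudocount at the median of all values in place of 28, the split was 78 higher and 62 lower.

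Among the 24 genes above all other arrays were signalling genes that neurons express after activity. Inhba, the activin A subunit, read 589.4 on the Reln knockout array, 152.0 on the WT array and 137.1, 105.6, 127.5 and 156.4 on the Vldlr, Apoer2, Dab1 and double knockout arrays. The Reln knockout array stood 1.92 above the mean of the other 5 on the log2 scale, where those 5 had an SD of 0.19. Ptgs2, cyclooxygenase-2, read 448.8, against 123.8 on the WT array and 111.0, 123.8, 137.4 and 129.9 on the other 4, a gap of 1.53 with an SD of 0.09 among the 5. For both genes the other 5 arrays lay close together and the Reln knockout array lay well above them. Nptx2, a secreted pentraxin that gathers glutamate receptors at synapses, read 1148.8, against 351.2 on the WT array and 538.1, 268.7, 364.6 and 511.3 on the other 4. Fosb, a subunit of the AP-1 transcription factor, read 496.2, against 110.8 on the WT array and 122.7, 187.7, 129.8 and 141.1 on the other 4. Sorcs3, a neuronal sorting receptor, read 1003.6 against 358.5 to 415.9.

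The remaining genes are ordered by what they are known for, an order chosen after their values were seen. Cdkn1a, the p21 inhibitor of cyclin-dependent kinases, read 1680.7, against 445.6 on the WT array and 559.3, 565.5, 538.2 and 575.1 on the other 4. It stood 1.60 above the mean of the 5 other arrays on the log2 scale, and these had an SD of 0.14. Srxn1, sulfiredoxin, which repairs oxidised peroxiredoxins, read 1681.5 against 643.3 to 765.0. The small heat shock protein gene Hspb1 read 1360.0 against 442.7 to 639.6, while its relative Cryab lay below all other arrays, at 506.3 against 568.0 to 1409.5.

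Several others encode proteins of the cell surface, the extracellular matrix and the cytoskeleton. Cd44, a receptor for hyaluronan, read 482.0, against 131.0 on the WT array and 146.3, 132.6, 87.6 and 119.4 on the other 4, a gap of 1.55. Prss23, a secreted serine protease, read 768.4 against 143.4 to 193.0, a gap of 1.85. Pmepa1, a membrane protein that dampens TGF-beta signalling, read 846.7 against 249.5 to 376.3. Tagln (251.4 against 48.4 to 96.5) encodes the actin-binding protein transgelin. Col5a3 (359.1 against 121.1 to 147.9) encodes a collagen V chain. Prg4 (305.6 against 67.1 to 122.7) encodes the lubricating proteoglycan lubricin.

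Blnk, an adaptor of B cell receptor signalling, read 689.7 against 114.9 to 208.9. Ctla2a, related to the propeptides of cysteine proteases and a member of the endothelial list, read 765.3 against 106.1 to 209.0, and Il17rb, a receptor of the interleukin-17 family, read 217.2 against 52.0 to 90.3. The microglial, endothelial, meningeal and blood marker lists each summed lower on this array than on the other 5. The margin was small for the endothelial list, which holds Ctla2a, and for the meningeal list. Microglial members ran both ways, with C1qa, Cd68 and Cd33 above all other arrays and P2ry12, Tmem119, Csf1r and Tyrobp below. The blood list holds only Hbb-b2, Alas2 and Bpgm. The part of immune or vascular cells in Blnk, Ctla2a and Il17rb was not tested. Dpm3, a subunit of dolichol-phosphate mannose synthase, had the widest gap above, 1.98, and read 519.7, against 80.2 on the WT array and 73.4, 101.9, 111.3 and 97.0 on the other 4. Plin4, a lipid droplet protein, read 537.1 against 70.6 to 186.3, and was the only one of the 38 genes whose other 5 arrays spread over more than 2-fold, with a range of 1.12 on the log2 scale. The others were Efcab6 (330.9 against 74.3 to 92.3), Fndc9 (576.9 against 88.2 to 178.4), Zfp605 (204.4 against 60.5 to 74.0), Klhl40 (225.4 against 36.3 to 90.0) and Gm34996 (211.0 against 56.2 to 89.2).

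Of the 14 genes below all other arrays, Reln had the widest gap. The next, 4933439C10Rik, read 14.7 on the Reln knockout array, against 432.8 on the WT array and 414.7, 436.7, 502.0 and 454.7 on the other 4, a gap of -3.37 with an SD of 0.10 among the 5. Its signal there lies below the pseudocount of 28, so the value is closer to a bound than to a level. Kitl, the stem cell factor that binds the receptor Kit, read 386.3, against 1101.5 on the WT array and 950.2, 980.6, 986.4 and 860.4 on the other 4. Shisa4, a transmembrane protein of the Shisa family, read 423.5 against 1209.2 to 2132.6. Soga3 read 137.1 against 538.4 to 674.9. Cd34, a surface glycoprotein of endothelial and blood progenitor cells, read 202.9 against 435.1 to 530.8 and had the narrowest gap of the lower genes.

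The remaining lower genes were dimmer or less well known. Rpgrip1, a scaffold protein of the photoreceptor cilium, read 38.9 against 262.6 to 551.0. Sypl2, a relative of synaptophysin best known from muscle, read 21.3 against 76.0 to 158.7. The others were Pdxdc1 (47.2 against 250.4 to 448.2), Tmem267 (64.0 against 207.4 to 350.6), Gm26782 (47.8 against 159.5 to 311.4), C920006O11Rik (11.1 against 65.5 to 137.2), Zfp983 (37.8 against 124.6 to 160.6) and Qser1 (38.6 against 108.0 to 154.9). For 3 of the 14 lower genes the signal on the Reln knockout array was under 28.

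**Figure D2:**
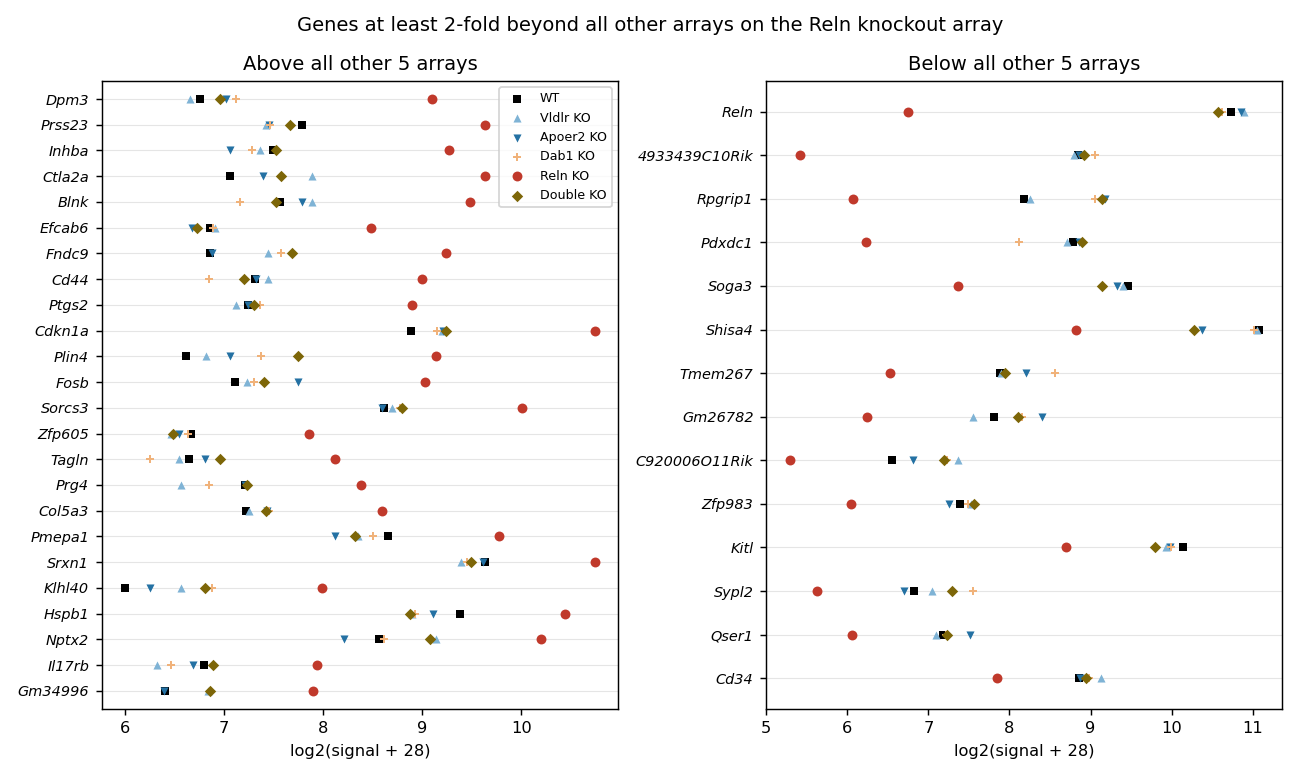
Log2(signal + 28) on the x axis for the 38 genes at least 2-fold beyond all other arrays on the Reln knockout array, 1 gene per line and 1 point per array. The Reln knockout points lie to the right of all others for 24 genes and to the left for 14, and the other 5 points lie within 2-fold of each other for 37 of the 38.

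The 2-fold limit is a choice, and genes on either side of it differed little. Just inside lay Il17rb (1.05), Gm34996 (1.03), Qser1 (-1.03) and Cd34 (-1.0). Just outside lay Fkbp5 (0.99), Grem1 and Gpc1 (both 0.98) and P2ry12 (-0.99). Grem1, gremlin, is a secreted BMP antagonist, Gpc1 is a heparan sulfate proteoglycan, and P2ry12 is the ADP receptor that marks resting microglia. A gap of at least 3-fold was left for 5 genes above and 5 below. Of the 6695 genes under the signal filter, 9 lay at least 2-fold above and 4 below.

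Further probe sets give a second reading of the same RNA. Of the 38 genes, 14 had another probe set past the signal filter and 17 had no other probe set at all. On the higher side, all 9 genes with any had each of them above WT. In 8 of the 9 at least 1 of them stood at least 2-fold above all other arrays. For Srxn1 this was 1 of 3, and another read 250.2 against 129.8 to 216.2. Ptgs2 read 633.2 against 62.7 to 93.7 and Cdkn1a read 772.5 against 246.6 to 297.2 at theirs. Nptx2 was the exception, with 172.2 against 89.8 to 181.2 at its dimmer probe set, within the range of the others. On the lower side, 1 of 5 genes reached 2-fold at a further probe set: 4933439C10Rik, with 52.3 against 244.3 to 317.1. Pdxdc1 ran both ways at its 2 further probe sets past the filter. One read 1117.4 on the Reln knockout array and 658.0 on the Dab1 knockout array, against 13.3 to 40.7 on the other 4 arrays, and the other read 205.2 against 218.1 to 294.9. The Pdxdc1 probe sets therefore give unequal signals within the gene and no single level for it. Kitl was lower than WT by -0.96 and -1.06 at further probe sets but by -0.01 at another.

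The lists of genes below were put together with earlier results of these data known, and counts within them describe this array. Immediate early genes are switched on within minutes of neuronal activity without new protein synthesis. Of 26 kept members, 15 read above all other arrays on the Reln knockout array and 3 below, where 22.1% and 25.2% of all kept genes did. Against WT, 10 were at least 2-fold higher and none lower (1.16% and 1.33% of all kept genes). A gap of 2-fold above was found for 1, Fosb, against 0.209% of all kept genes. The median log2 difference from WT was 0.71, against -0.01 over all kept genes.

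Arc, which regulates the uptake of AMPA receptors, read 1454.8 on the Reln knockout array, 282.4 on the WT array and 64.4, 778.9, 260.2 and 489.9 on the Vldlr, Apoer2, Dab1 and double knockout arrays. Fos, the partner of Jun in AP-1, read 1998.5, against 535.0 on the WT array and 449.0, 1262.4, 662.7 and 984.1 on the other 4. Npas4, a transcription factor that shapes inhibitory synapses, read 330.2, against 93.5 on the WT array and 40.3, 156.2, 73.2 and 227.3 on the other 4. In each of these the Reln knockout array was highest, but the other arrays also spread widely, with the Apoer2 and double knockout arrays above WT. For Arc the 5 other arrays had an SD of 1.17 on the log2 scale, so the gap was 0.88 although the difference from WT was 2.26. Klf10 (524.7 against 215.5 to 296.1) and Egr3 (2406.7 against 1102.9 to 1606.5), both zinc finger transcription factors, had narrower spreads. Egr1, of the same family as Egr3, read 4108.4 and lay within the others' 3120.3 to 5225.0. Nr4a2 and Nr4a3, orphan nuclear receptors, ran the other way, with 193.3 against 283.8 to 514.1 and 216.1 against 281.4 to 694.7. Further Nr4a2 probe sets past the filter differed. One read 163.5 against 216.8 to 298.0, but others lay within range, at 193.0 in 130.2 to 220.8 and 159.3 in 143.6 to 248.7. Homer1, a postsynaptic scaffold, was the other gene below all arrays, with a gap of -0.26. The list therefore did not move as a block.

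Delayed activity genes encode secreted peptides, growth factors and synaptic proteins that follow the transcription factors by hours. Of 24 kept members, 15 read above all other arrays and 3 below, where 22.1% and 25.2% of all kept genes did. A gap of 2-fold above was found for 3, Inhba, Ptgs2 and Nptx2, against 0.209% of all kept genes. The median log2 difference from WT was 0.52 and that from the mean of the other 5 arrays was 0.37. Penk, the precursor of the enkephalins, read 3040.8, against 1805.4 on the WT array and 1774.8, 1694.0, 1764.0 and 1847.8 on the other 4. The 5 other arrays agreed on Penk to an SD of 0.05 on the log2 scale, and the gap was 0.71. Rgs2, a regulator of G protein signalling, read 1389.5 against 626.2 to 830.0. Scg2 and Vgf, granins of dense core vesicles, read 4207.4 against 2507.3 to 2934.3 and 3186.5 against 1644.4 to 2224.5. The growth factor Bdnf read 369.0 against 199.9 to 250.7. Each of these members lay above a narrow range, unlike Arc and Fos. Crh, corticotropin-releasing hormone, was below all other arrays, at 131.6 against 167.7 to 253.4. The summed signal of the delayed list was 37889 on the Reln knockout array against 26509 to 29632, and that of the immediate early list was 22600 against 12966 to 20009.

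**Figure D3:**
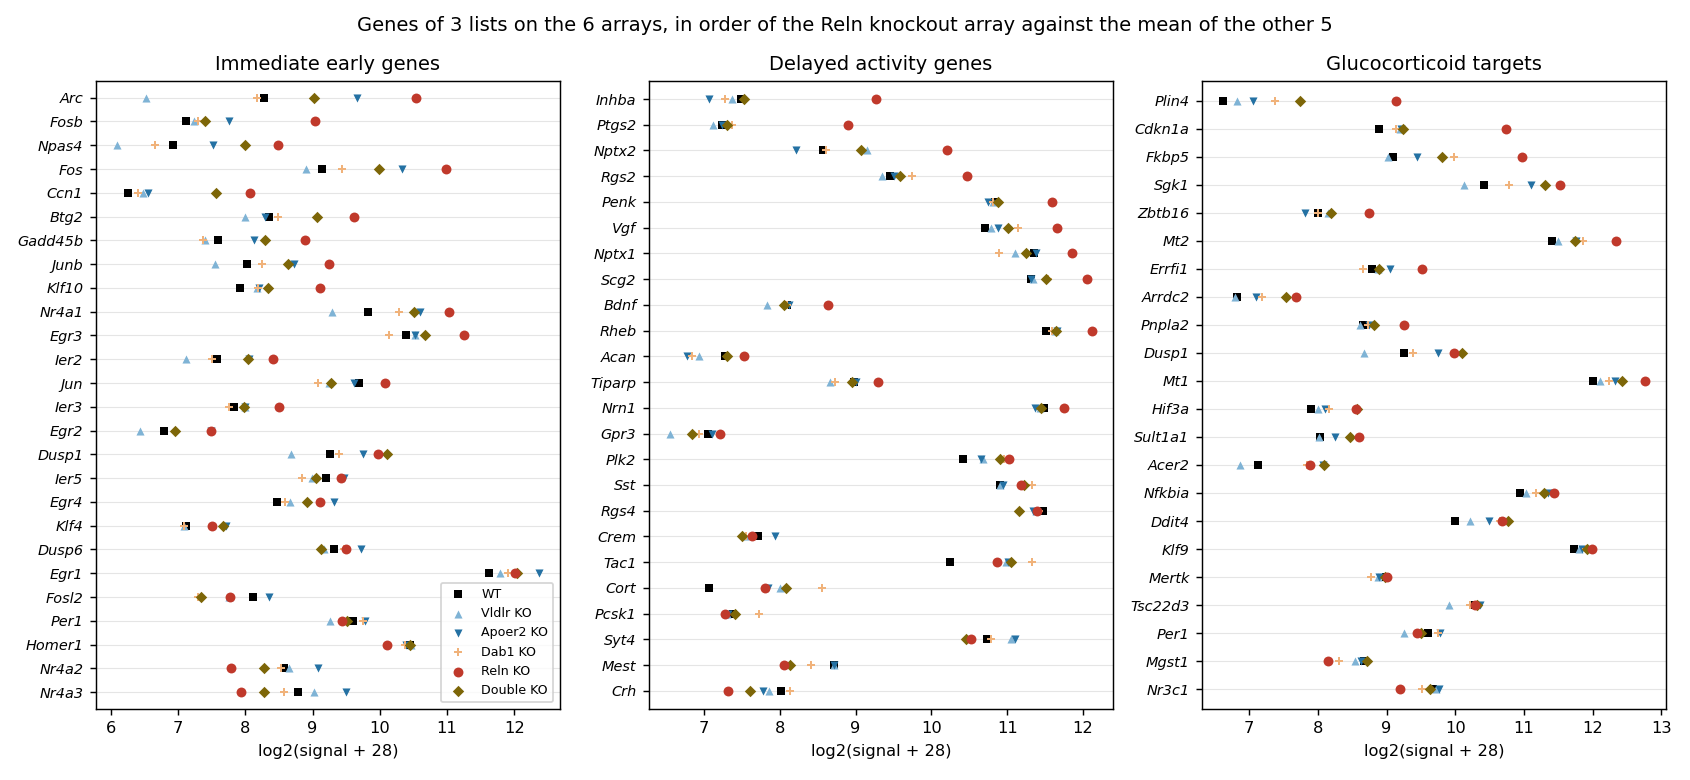
Log2(signal + 28) on the x axis for the kept immediate early genes (26), delayed activity genes (24) and glucocorticoid targets (22), 1 gene per line and 1 point per array, ordered by the Reln knockout array against the mean of the other 5. The Reln knockout point is the rightmost for 15, 15 and 14 genes and the leftmost for 3, 3 and 2.

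Many activity genes are controlled through the cAMP response element (CRE), bound by CREB, so promoters of members are shown with its letters. The windows are 300 bases, from 250 before to 50 after a gene's start, from RefSeq on GRCm38.p6, and capitals mark the motif. The full CRE is TGACGTCA and its core is TGACG, each searched on both strands, and the core is part of the full CRE. Fosb (chr7:19309996-19310295, minus strand) and Ptgs2 (chr1:150099781-150100080, plus strand) are shown as members with a gap of 2-fold, Fos (chr12:85473640-85473939, plus strand) as a relative of Fosb, and Scg2 (chr1:79439977-79440276, minus strand) for its full CRE.
Fosb: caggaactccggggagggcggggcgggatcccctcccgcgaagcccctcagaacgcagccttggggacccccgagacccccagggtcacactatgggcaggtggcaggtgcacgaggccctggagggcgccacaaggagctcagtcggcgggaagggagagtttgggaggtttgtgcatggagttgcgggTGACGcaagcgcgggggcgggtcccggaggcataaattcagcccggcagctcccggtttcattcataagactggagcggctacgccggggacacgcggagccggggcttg
Ptgs2: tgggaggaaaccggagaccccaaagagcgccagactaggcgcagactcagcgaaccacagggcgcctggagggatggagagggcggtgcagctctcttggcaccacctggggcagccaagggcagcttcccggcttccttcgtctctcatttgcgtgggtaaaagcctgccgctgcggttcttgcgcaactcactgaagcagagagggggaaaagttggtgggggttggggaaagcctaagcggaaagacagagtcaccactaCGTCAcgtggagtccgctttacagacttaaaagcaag
Fos: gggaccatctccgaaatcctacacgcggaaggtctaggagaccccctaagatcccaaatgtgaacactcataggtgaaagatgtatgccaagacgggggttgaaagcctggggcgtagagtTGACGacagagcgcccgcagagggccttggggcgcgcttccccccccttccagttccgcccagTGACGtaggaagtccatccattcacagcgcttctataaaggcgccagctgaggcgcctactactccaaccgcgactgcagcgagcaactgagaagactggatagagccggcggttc
Scg2: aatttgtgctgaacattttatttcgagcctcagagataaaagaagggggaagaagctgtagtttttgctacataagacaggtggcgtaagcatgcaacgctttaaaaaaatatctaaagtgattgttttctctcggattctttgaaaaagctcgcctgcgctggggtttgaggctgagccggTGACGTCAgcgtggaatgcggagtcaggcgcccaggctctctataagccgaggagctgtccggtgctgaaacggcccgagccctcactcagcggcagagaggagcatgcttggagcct
Fosb holds 1 core and Fos 2, Ptgs2 holds 1 on the opposite strand, and Scg2 holds the full element. The core lay in a window of 15 of 21 immediate early genes found in the table (71.4%) and 12 of 16 delayed genes (75%), against 35.7% of all kept genes. The full CRE lay in 2 of 21 (9.52%) and 4 of 16 (25%), against 3.57% of kept genes. Of the 24 genes above all other arrays, 19 were in the table, of which 8 held the core (42.1%) and none the full element. Of the 125 genes at least 1.5-fold above, 96 were in the table. The core lay in 34 of them (35.4%) and the full element in 4 (4.17%), near the shares of all kept genes. A match of letters is a description of the window and not a binding site.

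Glucocorticoid targets are genes that the stress hormone receptor switches on through its response element. Of 22 kept members, 14 read above all other arrays and 2 below, where 22.1% and 25.2% of all kept genes did. Against WT, 4 were at least 2-fold higher and none lower (1.16% and 1.33% of all kept genes). A gap of 2-fold above was found for 2, Cdkn1a and Plin4, against 0.209% of all kept genes. The median log2 difference from WT was 0.70, and 0.47 from the mean of the other 5 arrays. Fkbp5, a co-chaperone that restrains the receptor, read 1985.8, against 517.7 on the WT array and 489.3, 668.9, 985.9 and 870.8 on the other 4. The Dab1 and double knockout arrays were thus also above WT at Fkbp5. The metallothionein gene Mt2 read 5166.8 against 2680.1 to 3674.4, and Sgk1, a kinase of salt and stress responses, read 2922.5 against 1089.6 to 2495.1. Tsc22d3, the glucocorticoid-induced leucine zipper, read 1217.3 within the others' 931.1 to 1289.1. Nr3c1, the receptor itself, was below all others, at 559.6 against 701.8 to 838.0. The summed signal of the list was 34554 against 21324 to 27897.

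The glucocorticoid response element, an imperfect palindrome bound by the receptor as a pair, was searched on both strands. It lay in a window of 2 of 20 glucocorticoid targets in the promoter table (10%), Mt1 and Sgk1, against 0.397% of kept genes, and in none of the 19 higher and 14 lower genes of the 38 that the table holds. The Sgk1 window that holds it (chr10:21993640-21993939, plus strand) is shown for that match, with the element in capitals.
Sgk1: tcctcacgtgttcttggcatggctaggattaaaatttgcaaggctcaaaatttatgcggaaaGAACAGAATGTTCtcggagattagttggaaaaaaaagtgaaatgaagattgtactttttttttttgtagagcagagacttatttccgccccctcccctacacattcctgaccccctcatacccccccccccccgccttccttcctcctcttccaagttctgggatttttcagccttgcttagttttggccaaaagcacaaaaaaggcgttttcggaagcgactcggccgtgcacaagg
Sgk1 has several starts in the table, and its other windows lack these letters. The 14 kept genes of fasting lipid metabolism, which share Plin4 with the glucocorticoid list, had a median difference from WT of 0.14. Of these, 5 were above all other arrays and 3 below, where 22.1% and 25.2% of all kept genes were. The 16 heat shock and chaperone genes had a median of -0.05, and Hspb1 was their only member with a gap of 2-fold. These medians from WT were lower than those of the activity and glucocorticoid lists. All these lists were put together with earlier results of these data known, so the contrast is a description.

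Interneuron genes, markers of the cells that secrete reelin in the mature cortex, stood slightly higher. Of 21 kept, 10 read above all other arrays and 4 below, where 22.1% and 25.2% of all kept genes did. Their median difference from WT was 0.24. Their summed signal was 24831 against 20746 to 23401. Npy, a peptide of interneurons that also follows activity, read 2866.0, against 1320.1 on the WT array and 1763.3, 1528.1, 2191.9 and 1786.9 on the other 4. Lamp5, a marker of superficial interneurons that excitatory neurons also express, was below, at 800.2 against 1453.4 to 1677.4. Of 14 kept hypothalamic genes, 5 read above all other arrays and 4 below, against the same shares of all kept genes. Their median was 0.04 from the mean of the other 5. Gal (283.9 against 85.4 to 172.8) and Avp (557.9 against 160.9 to 397.9) were above, and Cartpt (341.5 against 453.8 to 543.3) and Crh were below. The summed signal was 10602 against 7869 to 9722, and without Npy, which the interneuron list also holds, it was 7736 against 6549 to 7624, a sum chosen after the values were seen. The part of hypothalamic tissue in the peptide genes was not tested.

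Among cortical layer markers, more upper layer genes lay below all other arrays, the Dab1 and double knockout arrays included, than above. Of 16 upper layer genes, 3 read above all other arrays and 9 below, where 22.1% and 25.2% of all kept genes did. Their median was -0.07 from WT and -0.18 from the mean of the other 5. Cux2, a transcription factor of upper layers, read 651.4 against 282.4 to 427.1, on the opposite side to most of the list. Wfs1, an endoplasmic reticulum protein that the hippocampal list also holds, read 3173.5, against 1301.0 on the WT array and 1315.0, 1307.4, 1247.4 and 1813.7 on the other 4. Of 20 deep layer genes, 6 were above and 7 below, and the median was 0.07 from WT but -0.19 from the mean of the other 5 arrays. Ccn2, which marks the deepest cortical layer and is also a TGF-beta target, read 1001.8 against 351.0 to 574.1. Of 12 genes of immature neurons, none was above all other arrays and 5 were below.

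Of 31 kept genes of the reelin pathway, 3 read above all other arrays and 11 below, against 22.1% and 25.2% of all kept genes. At the probe sets used, Reln was the only member 2-fold from WT. Src, a kinase that phosphorylates Dab1, read 759.4 against 490.7 to 573.6. Cdk5r2, the p39 activator of the neuronal kinase Cdk5, read 605.8, against 1056.3 on the WT array and 1412.3, 1151.2, 1708.6 and 1382.7 on the other 4, a gap of -0.77. Its dimmer probe set, also past the signal filter, read 11.7 against 83.0 to 131.7, with a log2 difference of -1.85 from WT and a gap of -1.48. Cdk5r1, which encodes the related activator p35, read 1217.0 against 1387.2 on the WT array. Dcx, the microtubule protein of migrating neurons, read 187.6 against 228.5 on the WT array.

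Of 15 myelin and oligodendrocyte genes, 8 read below all other arrays and 1 above, where 25.2% and 22.1% of all kept genes did. The median difference from WT was -0.36. Galc ran the other way, at 404.6 against 62.3 on the WT array, and the Dab1 and double knockout arrays were high too (377.0 and 425.3). Another Galc probe set past the filter read 109.9 against 141.0 on the WT array. Ugt8a, the enzyme that makes the galactolipid of myelin, read 1296.9, against 2743.5 on the WT array and 2494.4, 2487.2, 3699.6 and 1959.0 on the other 4. The summed myelin signal of 32902 lay within the others' 31360 to 39490. Oligodendrocyte precursor genes summed to 7500 against 8823 to 10308. Gpr17, a receptor of cells about to form myelin, read 546.4 against 890.5 to 1285.9. Olig1, Sox10, Bcas1 and Enpp6 were also below all other arrays. C1ql1 was above, at 360.1 against 214.8 to 347.7, and Pdgfra, Cspg4, Olig2 and Lhfpl3 lay within the others' range.

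For vascular, microglial, meningeal and blood genes the summed signal lay below the range of the other 5 arrays. Itm2a, an endothelial membrane protein, read 606.9 against 1014.0 to 1494.7, while Cldn5, the tight junction protein of brain endothelium, read 716.0 within the others' 492.9 to 756.1. Of 11 kept microglial genes, 4 read below all other arrays and 3 above, where 25.2% and 22.1% of all kept genes did. P2ry12 read 220.5, against 515.5 on the WT array and 745.3, 464.9, 674.7 and 553.5 on the other 4. C1qa, a complement subunit made by microglia, was on the other side, at 948.8 against 631.4 to 766.3. Of 16 genes of endothelium and pericytes, 3 were below all other arrays and 2 above, both smaller shares than those of all kept genes. Summed signals were 6508 against 6586 to 8080 for endothelium and pericytes, 5224 against 5617 to 6135 for microglia, 10019 against 10061 to 11185 for meninges and fibroblasts, and 703 against 848 to 1710 for the 3 kept blood genes. The endothelial and meningeal margins were small. Ptgds, at 6543.1 within the others' 5794.1 to 7043.0, made up most of the meningeal sum. All 3 blood genes were below the other 5 arrays, with Hbb-b2, a haemoglobin beta chain, at 61.5 against 99.1 to 150.9. The part of residual blood and vessels in these and in Cd34 was not tested.

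Sterol synthesis genes, many of them expressed by myelinating cells, had a median difference from WT of -0.32. Of 16, 7 were below all other arrays and 2 above, where 25.2% and 22.1% of all kept genes were. From the mean of the other 5 arrays that median was -0.16. Of 16 clock genes, 7 were below all other arrays and 1 above, against the same shares of all kept genes. Dbp, a clock output factor whose level follows the time of day, read 487.2, against 990.8 on the WT array and 1150.9, 1267.3, 852.4 and 1108.4 on the other 4. The hour of dissection is not given in the labels, and its part in Dbp was not tested. Granule cell genes of the cerebellum were far below WT, with a median of -1.64 and 13 of 15 at least 2-fold lower, but none had a gap of 2-fold because the Dab1 and double knockout arrays were low too.

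**Figure D4:**
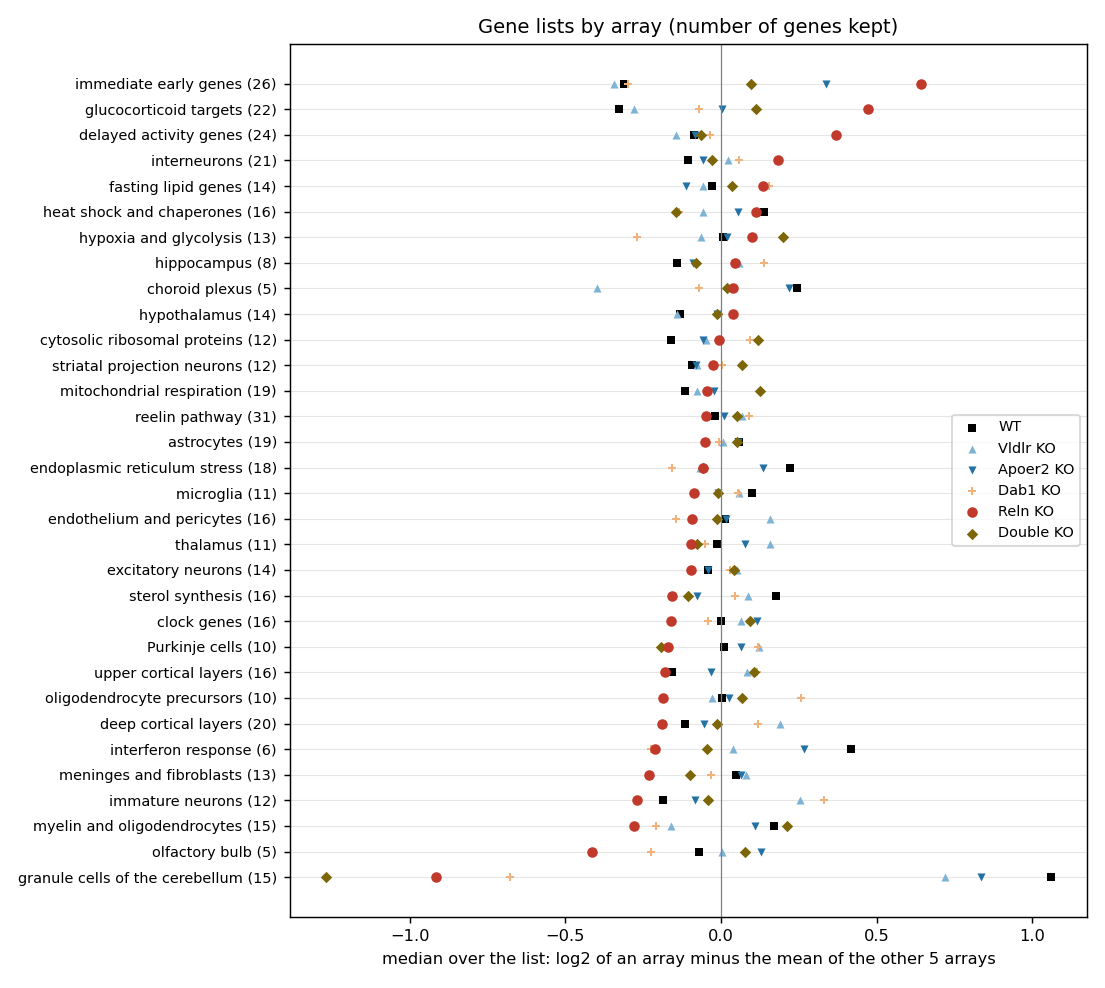
Median over each gene list of the difference between an array and the mean of the other 5 on the log2(signal + 28) scale, 1 line per list and 1 point per array. The Reln knockout point is the highest at the immediate early (0.64), glucocorticoid (0.47) and delayed activity (0.37) lists, and the Dab1 (-0.68), Reln (-0.91) and double knockout (-1.27) points are low together at granule cell genes.

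Because the Reln knockout came from its own mating on a mixed background, genes near Reln, which are inherited with it, were counted separately. Among the 200 protein-coding genes within 100 places of Reln in RefSeq's gene table for GRCm38.p6, 96 were kept and none had a gap of 2-fold (0.33% of all kept genes did). The Reln knockout array was outermost for 40 of the 96 (41.7%), against 47.3% of all kept genes. Against WT, 5 of the 96 were at least 2-fold apart (5.21%, against 2.49% of all kept genes), which were Fastk, Grm3, En2, Cnpy1 and Mterf1a. En2 and Cnpy1 belong to the granule cell list. On the whole chromosome of Reln, 22 of 722 kept genes were 2-fold from WT (3.05%), and Hspb1, Nptx2 and Zfp605 had a gap of 2-fold besides Reln, at 915, 1076 and 603 places from it. Of the 37 genes other than Reln with a gap of 2-fold, 33 had a place in the table. With so few such genes, a count of none among 96 neighbours says little.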

How the data were processed

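The authors deposited array signal intensities on a linear scale, made with Affymetrix Expression Console and MAS5 from biotinylated cRNA of a 3' IVT kit, per the submitters' processing notes and the labels' protocols. Versions and a genome build were not found in the sources used here. MAS5 scales each array on its own, and dim probe sets vary most on its scale, which the filter and the pseudocount lessen.

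Of 45101 probe sets, 34958 name 1 gene in the platform annotation. A gene is represented by its brightest probe set on average (names ending in _x_at last). The mean signal over the 6 arrays had to reach 89.0, the median over probe sets. The pseudocount of 28 is near the 25th percentile of all values (28.1), and fold differences on log2(signal + 28) understate those of dim genes. Python 3.11.15 with pandas 2.3.3 and numpy 2.4.6 computed gaps, counts and medians, and the procedure was tested on simulated data.

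Groups are the labelled genotypes, and the number of arrays (1 per genotype) limits the precision. Members, lists and limits were chosen with earlier results of these data known. Genes named include all of the 38. Others were drawn from the 15 widest gaps and 5 widest differences from WT on each side and 4 genes at the limit. The 2 widest members of each list on each side were also drawn on, and not all of them are named. Members beyond these, and the families in the closing section, were chosen after their values were seen. Of the kept genes' symbols, 11477 were found in RefSeq's gene table. Alternatives were other pseudocounts, filters, normalization, probe set rules, comparison arrays, gap limits and leaving out each array.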

Additional observations from a re-analysis of the deposited data

How the results depend on the processing

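No paired analysis was possible because each genotype is 1 array. Of the 38 genes, 37 were called again after quantile normalization, 21 with the median pseudocount, 14 of 14 still measured with a filter at 297.5, and 29 of 34 with the mean of all probe sets. A smaller pseudocount or fewer arrays can only widen a gap and so says nothing of their stability. The counts depend on the choices. Genes 2-fold higher and lower than WT numbered 133 and 153, against 78 and 62 with the median pseudocount, 291 and 283 with no filter, 59 and 73 with a filter at 297.5, and 705 and 763 over every probe set. They numbered 87 and 88 against the mean of WT and the single receptor knockouts, and 68 and 53 against the mean of the other 5 arrays. Genes that stood 2-fold apart on the Reln knockout array numbered 24 above and 14 below, against 27 below with a pseudocount of 1, 15 and 6 with the median pseudocount, 6 and 8 with a filter at 297.5, and 71 and 52 over every probe set. A gap of 1.5-fold gave 125 and 105, and a gap of 3-fold gave 5 and 5. Leaving out 1 array gave 25 to 37 above and 15 to 18 below, with 37 above where the double knockout array was left out. Pdxdc1 was reversed, at 0.71 from WT with the mean of its probe sets, which run opposite ways. The median of delayed activity genes was 0.46 after quantile normalization. Against the mean of the other 5 arrays, list medians were 0.37 for delayed activity genes, 0.47 for glucocorticoid targets, -0.16 for sterol synthesis, -0.0062 for ribosomal proteins, -0.18 for upper layers, -0.19 for deep layers, -0.086 for microglia, 0.04 for the hypothalamus, -0.41 for the olfactory bulb and -0.27 for immature neurons. The deep layer and ribosomal medians thus changed sign, from 0.07 and 0.13. The cause of these shifts was not tested. Dim genes are limited by signal over background.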

Other observations

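A few genes with a gap between 1.5-fold and 2-fold on the Reln knockout array were picked after their values were seen, with no list or count behind them. Skil, a repressor of SMAD transcription factors, read 2116.5 on the Reln knockout array against 995.8 to 1284.5 on the other 5. Tgfb1i1, a focal adhesion protein that TGF-beta raises, read 485.3 against 212.6 to 239.9. Twsg1, a secreted modulator of BMP signalling, read 398.8 against 215.7 to 251.7. In each of them the 5 other arrays lay in a narrow range below the Reln knockout array. Others on this side were Chga, a granin of dense core vesicles (2211.5 against 942.6 to 1179.9), and Sstr2, a somatostatin receptor (773.2 against 289.3 to 421.0).

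Potassium channel genes and dual specificity phosphatases were 2 families taken up after the values were seen. Of 52 kept genes of potassium channel subunits, taken by symbol, 6 lay at least 1.5-fold below all other arrays and 1 above, against 0.913% and 1.09% of all kept genes. Kcnv1, a modulatory subunit, read 274.6 against 506.4 to 638.3. Kcnk4, a mechanosensitive channel, read 61.8 against 128.0 to 248.5. Kcnh1, a voltage-gated channel, was the one above, at 1397.9 against 710.6 to 830.7. At any gap, 18 members were below all other arrays and 9 above, where 25.2% and 22.1% of all kept genes were. Of 21 dual specificity phosphatases, 2 lay at least 1.5-fold above and none below, and Dusp4, which dephosphorylates MAP kinases, read 309.5 against 96.0 to 165.1.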
